A study of Mus musculus with 12 samples.

Results

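Primary astrocyte cultures of the senescence-accelerated strain SAMP8 were compared with those of the senescence-resistant strain SAMR1 after both had received serum of rats fed ad libitum (AL), a comparison written here as P8AL-R1AL. It uses 6 of the 12 samples of the study, SAMP8-AL replicates 1 to 3 and SAMR1-AL replicates 1 to 3, which were chosen by their titles. The other 6 samples are cultures of the same strains given serum of rats under caloric restriction (CR), and they enter the same model and a side by side comparison. All cultures came from the cerebral cortex of mice aged 2 days, were grown for 21 days and then received 10% serum, heat inactivated at 56 °C, for 48 h. The RNA of each sample was read on 1 Illumina bead array with 24613 mouse probes. The labels describe the cultures as mostly astrocytes with a minority of microglia and few oligodendroglia, so that a lower value can mean fewer cells of a type or less RNA per cell, which cannot be told apart in such samples. The study describes 3 independent experiments, but the labels do not say which pups, litters or plates gave a sample. Each strain is a single inbred line, so the strain difference holds whatever else distinguishes these lines.

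Astrocytes clear glutamate and potassium from the synaptic space, supply neurons with metabolites and shape the inflammatory tone of the brain. SAMP8 mice age early, with deficits of learning and memory and with deposits of amyloid in the brain, whereas SAMR1 mice age normally, and the lines share a founder stock. Microglia are the resident macrophages of the brain. They persist in astrocyte cultures and carry receptors for antibody, complement and lipids that astrocytes make at low levels or not at all.

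Levels are given as normalized levels, on a log2 scale with 0 at the mean of all probes of an array, and differences as log2 fold changes, SAMP8-AL minus SAMR1-AL, with their SE. A probe was tested when its detection p-value was under 0.05 in every array of at least 1 of the AL groups. This left 10478 probes and, with the brightest probe for each gene, 7779 of the 15967 genes on the array. Between 41.25% and 46.73% of the probes were detected on an array. The normalized values correlated with r from 0.978 to 0.992 among SAMP8-AL samples, from 0.964 to 0.971 among SAMR1-AL samples and from 0.938 to 0.961 between the strains, over the tested probes. The arrays fell into 2 sets by their lowest intensity, which was 41.64 in SAMP8-AL replicate 2 and 40.09 in replicate 3, against 7.01 to 8.19 in the 8 arrays that include SAMP8-AL replicate 1 and all 3 SAMR1-AL samples. No label names these sets. They overlap with the strain. Counts with the set as a block, and counts without replicate 1 of both AL groups, are therefore given by gene group below, where calls were lost. A named gene may lose its call in either fit.

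SAMP8-AL astrocyte cultures showed 424 genes higher and 309 genes lower than SAMR1-AL cultures at a limma adjusted p under 0.05. These are 5.45% and 3.97% of the tested genes, together 9.42%, and the shares against which the gene groups below are read. At the level of probes, 688 were higher and 386 lower. The median size of a call was 0.685 on the log2 scale among the genes that rose, of which 79 passed 2-fold, and 0.765 among those that fell, of which 82 did. The median log2 fold change over all tested genes was 0.0201, and 4114 of the 7779 lay above 0. In 30.8% of the tested genes there was no overlap between the SAMP8-AL and SAMR1-AL samples. Blocking on the array set left 236 genes higher and 231 lower, and within the first set alone, with SAMP8-AL replicate 1 as the lone SAMP8-AL sample, 42 were higher and 43 lower. The lone sample is assumed there to vary like the other groups.

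The largest rise was that of Fcer1g, the common gamma chain that activating Fc receptors need to reach the surface of macrophages and to signal. Its normalized level was 2.00, 3.02 and 2.69 in SAMP8-AL replicates 1, 2 and 3, against -0.98, -0.87 and -0.78 in the SAMR1-AL replicates. The raw intensities behind these levels were 512.2, 1349 and 868.5 in SAMP8-AL cultures, against 91.43, 88.45 and 87.48 in SAMR1-AL cultures. No SAMR1-AL array detected the probe, so that the difference is a bound, at least 8.26-fold higher in SAMP8-AL cultures (limma adjusted p = 8.37e-07, fitted log2 fold change 3.45 ± 0.228, SE, n = 3 each). The bound is given for the signal of this probe alone. Fcer1g is not among the genes that the study measured by quantitative PCR. Sequence differences between the strains under the probe were not tested.

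Slc25a18, a mitochondrial glutamate carrier of astrocytes, had levels of 4.67, 3.67 and 4.22 in SAMP8-AL cultures, against 2.42, 1.26 and 1.25 in SAMR1-AL cultures. It rose by 2.54 ± 0.323 (limma adjusted p = 3.18e-04), and its lowest SAMP8-AL sample lay above its highest SAMR1-AL sample. Ddit4l, a relative of the stress-induced inhibitor of the growth kinase mTORC1, stood at 3.23, 3.04 and 2.89 in SAMP8-AL cultures and at 0.99, 0.69 and 0.84 in SAMR1-AL cultures, with a rise of 2.21 ± 0.146 (limma adjusted p = 8.37e-07). The groups were separated by more than the whole spread within either. Reck encodes a membrane-anchored inhibitor of matrix metalloproteinases. Its levels were 1.93, 2.19 and 2.04 in SAMP8-AL cultures, against 0.20, -0.18 and -0.14 in SAMR1-AL cultures, a rise of 2.10 ± 0.144 (limma adjusted p = 1.15e-06).

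The other large rises were in genes of several kinds. They include Slco1a4 (2.14) and Slco1a5 (1.77), carriers of organic anions such as bile salts and thyroid hormone, which lie in the same gene cluster. Glycam1, a mucin-like glycoprotein that L-selectin binds, rose by 2.24, and the sodium bicarbonate cotransporter Slc4a4 of astrocytes by 1.64. Atxn1, the gene whose repeat expansion causes a spinocerebellar ataxia in humans, was detected in no SAMR1-AL array, and SAMP8-AL cultures were at least 2.84-fold higher. The remaining members of the 15 largest rises were Gpr137b-ps (2.14), Marchf8 (1.74), Tesk1 (1.60), Unc5b (1.60), Bdh2 (1.58) and Adcy2 (1.55). Marchf8 is a ubiquitin ligase that takes receptors off the cell surface, Unc5b a receptor of netrin, and Adcy2 an adenylate cyclase. By quantitative PCR the study found rises at least as large as on the array for Ddit4l and Glycam1. Those for Slc25a18, Reck and Gpr137b-ps were smaller than on the array.

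**Figure D1:**
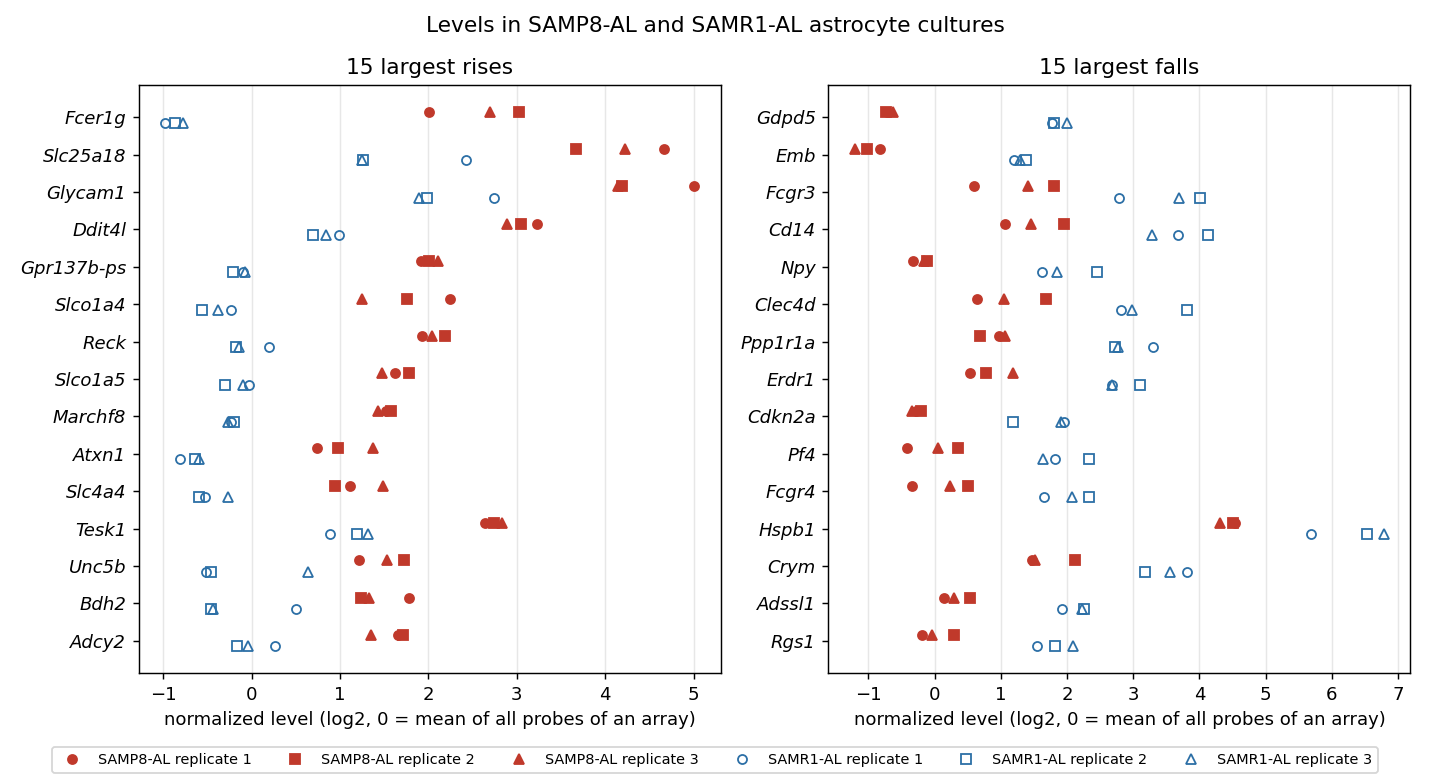
Normalized level (log2, with 0 at the mean of all probes of an array) of the 15 genes with the largest rises and the 15 with the largest falls, in each SAMP8-AL sample (filled) and each SAMR1-AL sample (open). Genes were plotted only if their 3 SAMP8-AL values all lay above or all below the 3 SAMR1-AL values, as in Fcer1g, where SAMP8-AL cultures lay between 2.00 and 3.02 and SAMR1-AL cultures between -0.98 and -0.78.

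The largest fall was that of Gdpd5, a glycerophosphodiesterase of the plasma membrane that takes part in the differentiation of motor neurons. Its raw intensity was 94.1, 82.86 and 86.26 in SAMP8-AL cultures, where no array detected it, against 729.6, 474.2 and 466.4 in SAMR1-AL cultures. By the signal of this probe it was at least 5.26-fold higher in SAMR1-AL cultures (limma adjusted p = 4.75e-07, fitted log2 fold change -2.55 ± 0.154, n = 3 each). Quantitative PCR in the study gave Gdpd5 only a slight fall in SAMP8-AL cultures, so the bound is given for the probe alone. Emb, embigin, a chaperone of monocarboxylate transporters and an adhesion molecule, behaved alike on the array. It was detected in no SAMP8-AL array and was at least 3.56-fold higher in SAMR1-AL cultures (limma adjusted p = 4.75e-07). Its fall by quantitative PCR in the study was somewhat smaller than this bound. Eef1a2, the form of the translation elongation factor found in neurons and muscle, was at least 2.74-fold higher in SAMR1-AL cultures and also detected in no SAMP8-AL array. Npy, a neuropeptide, fell by 2.18 on the log2 scale, with levels of -0.33, -0.12 and -0.16 in SAMP8-AL cultures and 1.63, 2.46 and 1.85 in SAMR1-AL cultures (SE 0.225, limma adjusted p = 5.04e-05). Among the other large falls were Hspb1 (-1.89), a small heat shock protein, Crym (-1.81), which binds thyroid hormone, Ppp1r1a (-2.03), an inhibitor of protein phosphatase 1, Adssl1 (-1.81), an enzyme of purine synthesis in muscle, and Erdr1 (-2.0). The remaining 7 of the 15 largest falls were Fcgr3, Cd14, Clec4d, Pf4, Fcgr4 and Rgs1, which myeloid cells express, and the cell cycle inhibitor Cdkn2a. In the study's quantitative PCR the falls of Npy and Clec4d were larger than on the array, and those of Hspb1 and Fcgr3 smaller.

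Of these 30 genes, 27 kept their side of the threshold and their direction in all 27 alternative fits, and the exceptions were Tesk1, Unc5b and Hspb1.

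Markers of microglia and macrophages had the largest median difference among the lists with 10 or more tested genes. Of 40 tested markers 23 were lower and 1 was higher, 60% against 9.42% of all tested genes, and the median log2 fold change was -0.935. Their mean level was 0.81, 1.52 and 1.22 in SAMP8-AL replicates 1, 2 and 3, against 1.63, 2.38 and 2.26 in the SAMR1-AL replicates. All 3 SAMP8-AL samples lay below all 3 SAMR1-AL samples, although SAMP8-AL replicate 2 came close to SAMR1-AL replicate 1. Blocking on the array set left 22 of the markers lower and 1 higher, with a median of -1.39, and without replicate 1 of both strains the counts were the same. A marker detected in SAMR1-AL arrays alone passed the filter through the group where it is high. Of the 32 markers detected in all 6 AL arrays, 19 were lower and 0 higher, with a median of -1.13, against 3.35% of all 6896 tested genes so detected.

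The markers that fell included pattern recognition and lipid receptors. Cd14, the co-receptor for bacterial lipopolysaccharide, had levels of 1.06, 1.96 and 1.46 in SAMP8-AL cultures, against 3.68, 4.13 and 3.29 in SAMR1-AL cultures, and fell by 2.21. Trem2, a lipid receptor whose variants alter the risk of Alzheimer disease in humans, fell by 1.44 (SE 0.256, limma adjusted p = 0.00394). Its adaptor Tyrobp stood at 0.98, 1.81 and 1.56 in SAMP8-AL cultures, against 2.38, 3.18 and 3.08 in SAMR1-AL cultures, and fell by 1.43 (limma adjusted p = 0.00727). Tyrobp serves as a signalling adaptor much as Fcer1g does, and the pair moved in opposite directions here. The 3 chains of C1q, the recognition molecule of the classical complement pathway, also fell, C1qa by 1.33, C1qb by 1.33 and C1qc by 1.13, with an overlap between the groups for C1qc. Clec4d (-2.08) and Clec4n (-1.59), receptors for fungal sugars and mycobacterial glycolipids, Rgs1 (-1.80), which dampens chemokine signalling, Lgals3 (-1.36), Gpnmb (-1.54), Mmp12 (-1.60) and the chemokines Ccl3 (-0.74), Ccl4 (-1.23) and Ccl9 (-1.56) were lower as well. Ccl3 lost its call with the array set as a block (limma adjusted p = 0.0565) and without replicate 1 (0.176), Ccl9 without replicate 1 (0.103), and Gpnmb with the block (0.0507). Pf4, a chemokine of platelets and some macrophages, fell by 1.93.

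Other markers of these cells did not pass the test. The fractalkine receptor Cx3cr1 had levels of 0.57, 1.68 and 1.31 in SAMP8-AL cultures and 0.69, 0.80 and 2.00 in SAMR1-AL cultures, a difference of 0.03 ± 0.320 (limma adjusted p = 0.970). Tmem119, a marker of mature microglia, differed by 0.09, the myeloid transcription factor Spi1 by -0.09 and the calcium-binding protein Aif1 by -0.41, none past the threshold. The bright lysosomal genes Laptm5 and Lyz2 overlapped between the groups, at 5.12 to 5.59 in SAMP8-AL cultures and 5.26 to 6.78 in SAMR1-AL cultures for Laptm5. Itgam, P2ry12, Cd52 and Msr1 were detected in no AL array. The markers thus did not move as a block.

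By the signals of their probes, receptors for the constant part of immunoglobulin G and their gamma chain differed in opposite directions. Fcgr3, an activating receptor whose surface expression depends on the gamma chain that Fcer1g encodes, had levels of 0.59, 1.80 and 1.41 in SAMP8-AL cultures and 2.79, 4.01 and 3.69 in SAMR1-AL cultures. It fell by 2.23 (SE 0.323, limma adjusted p = 0.00101). Fcgr4, another activating receptor that uses this chain, fell by 1.89, and the inhibitory receptor Fcgr2b by 1.26. The 8 tested members of the Fc receptor list held 1 higher and 3 lower genes, 50% against 9.42% of all tested genes. The list median was -0.243. Fcer1g passed the filter through the SAMP8-AL arrays alone, where it is high. Of the 6 members detected in all 6 AL arrays, 3 were lower and 0 higher, against 3.35% lower of all tested genes so detected. Fcgr2b, Fcgr4 and Fcgr3 follow each other among the tested genes of chromosome 1, the chromosome that also carries Fcer1g. The same was seen in CR serum, where Fcer1g, detected in no SAMR1-CR array, was higher in SAMP8-CR than in SAMR1-CR cultures by 4.07 on the fitted scale (limma adjusted p = 3.52e-07) and Fcgr3 lower by 1.79 (limma adjusted p = 0.00628).

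**Figure D2:**
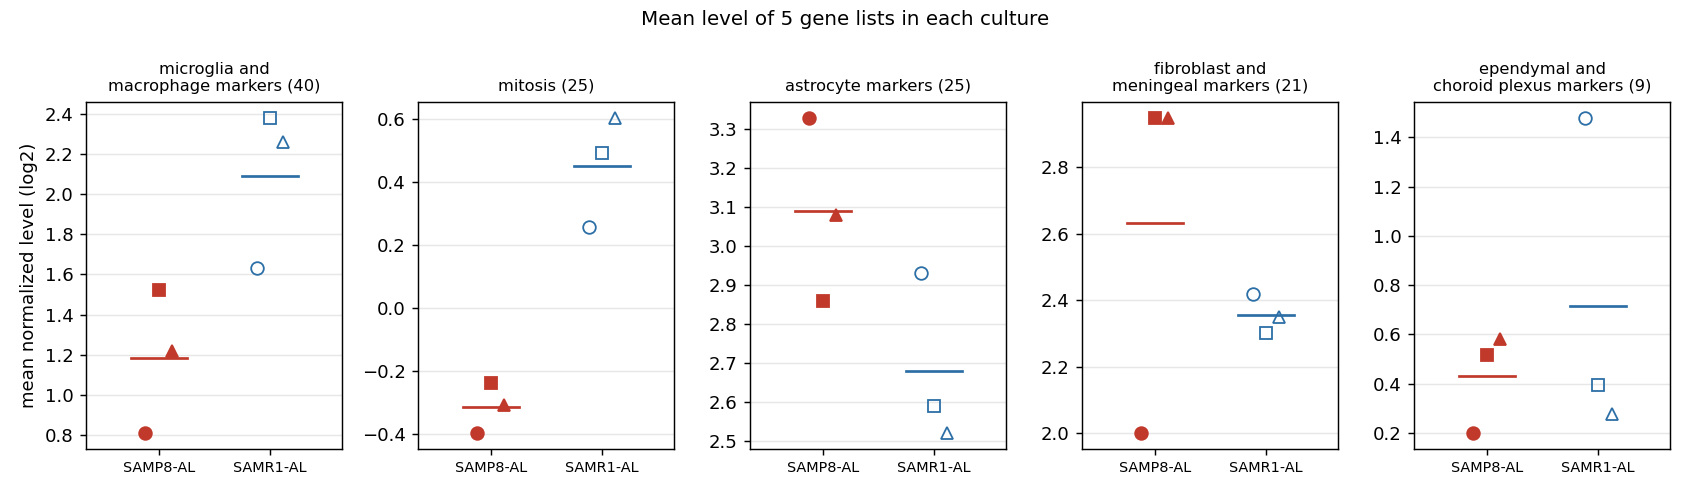
Mean normalized level (log2) over the tested members of 5 gene lists, with the number of members in brackets, in SAMP8-AL samples (filled) and SAMR1-AL samples (open). Circles stand for replicate 1, squares for replicate 2, triangles for replicate 3, and bars for the group mean. The microglial and the mitotic lists did not overlap between the strains, whereas the fibroblast and choroid plexus lists show replicate 1 apart from replicates 2 and 3.

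The astrocyte markers differed less. Of 25 tested, 3 were higher and 0 lower, 12% called against 9.42% of all tested genes, with 19 of the 25 above 0 and a median of 0.301. The 3 that rose were Slc25a18, Slc4a4 and Bcan (1.08), a proteoglycan of perineuronal matrix made by glia, which lost its call without replicate 1 (limma adjusted p = 0.101). Gfap, the intermediate filament that defines astrocytes, had levels of 2.23, 1.71 and 1.94 in SAMP8-AL cultures and 2.74, 1.14 and 1.57 in SAMR1-AL cultures, which overlapped (0.14 ± 0.415, limma adjusted p = 0.867). Glul, glutamine synthetase, differed by 0.77, and Aldoc, the aldolase of brain, by 1.06, with limma adjusted p-values of 0.0680 and 0.0542, although each had all 3 SAMP8-AL samples above all 3 SAMR1-AL samples. The glutamate transporter Slc1a3 and the gap junction protein Gja1 were among the brightest markers and differed by 0.32 and -0.18, neither past the threshold. Slc1a2 and S100b were detected in no AL array. The mean level of the list was 3.33, 2.86 and 3.08 in SAMP8-AL replicates 1, 2 and 3, against 2.93, 2.59 and 2.52 in SAMR1-AL replicates.

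Blocking on the array set gave 5 higher astrocyte markers and a median of 0.474. Genes of reactive astrocytes were divided, with 24% called against 9.42% of all tested genes. Of 25 tested, 2 were higher, the metalloreductase Steap4 (0.75) and the ferroxidase ceruloplasmin, Cp (0.71), and 4 were lower, Cd14, the granule proteoglycan Srgn (-1.56), Hspb1 and Cd109 (-0.71). Cp and Cd109 lost their calls without replicate 1 (limma adjusted p = 0.142 and 0.0857). Cd14 and Srgn are also expressed by myeloid cells. The cytokine-induced secreted proteins Lcn2 (-0.26) and Serpina3n (-0.41) did not pass the test.

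Markers of other cell types were detected in part. No AL array detected 10 of the 19 oligodendrocyte markers, among them Mog, Mag and Mobp, 9 of the 27 neuron markers, or 7 of the 19 endothelial markers, among them Pecam1, Cldn5 and Kdr. Of the 29 fibroblast and meningeal markers 21 were tested and 6 were detected in no AL array. Olig2, which drives oligodendrocyte development and is also carried by some astrocytes, was the only called member of its list. Its levels were 0.62, 0.41 and 0.24 in SAMP8-AL cultures and -0.37, -0.60 and -0.42 in SAMR1-AL cultures (0.89, limma adjusted p = 6.21e-04). It passed the filter through the SAMP8-AL arrays alone, where it is high. Of the 4 members detected in all 6 AL arrays, 0 were called. The brighter Olig1 overlapped between the groups (0.71, limma adjusted p = 0.353). Of 21 fibroblast and meningeal markers 0 were higher and 1 lower, the calcium-binding protein S100a6 (-1.14), and of 9 ependymal and choroid plexus markers 1 was lower, the thyroid hormone carrier Ttr (-1.67). S100a6 lost its call without replicate 1 (limma adjusted p = 0.0739), where 2 fibroblast markers were higher and 0 lower, while blocking on the array set left 0 higher and 3 lower. These lists moved with replicate number, as described for replicate 1.

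Genes of mitosis were lower in SAMP8-AL cultures. Of 25 tested, 16 were lower and 0 higher, 64% against 3.97% of all tested genes called lower, and the median was -0.799. Their mean level was -0.396, -0.238 and -0.308 in SAMP8-AL cultures, against 0.258, 0.490 and 0.603 in SAMR1-AL cultures, without overlap. Tpx2, which builds the spindle and activates Aurora A, had levels of -0.08, 0.08 and -0.08 in SAMP8-AL cultures, against 0.82, 1.16 and 1.18 in SAMR1-AL cultures, and fell by 1.08 (SE 0.189, limma adjusted p = 0.00372). Prc1, which bundles the microtubules of the central spindle, fell by 1.43, the centromere histone Cenpa by 1.35, Birc5 and Aurkb of the chromosomal passenger complex by 1.04 and 1.00, the kinase Plk1 by 1.03 and the main mitotic kinase Cdk1 by 0.91. Kif2c, a microtubule depolymerase, and Ube2c, the ubiquitin-conjugating enzyme of the anaphase promoting complex, were detected in no SAMP8-AL array and were at least 1.48-fold and 1.15-fold higher in SAMR1-AL cultures.

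Part of the list lay at or near background, as only 14 of the 25 tested genes were detected in all 6 AL arrays. A further 12 of the 40 genes of the list were detected in no AL array. Genes that passed the filter through the SAMR1-AL arrays alone could hardly be called other than lower, so that the share of 64% is no measure of the list as a whole. Of the 14 mitotic genes detected in all 6 AL arrays, 7 were lower and 0 higher, with a median of -0.855. That is 50% lower, against 3.35% of all tested genes so detected. The count of falls among the 25 went to 6 when blocking on the array set and to 7 without replicate 1 of both strains, with Prc1, Cenpa, Birc5, Plk1 and Cdk1 past the threshold in neither fit, while the medians were -0.842 with the block and -0.891 as the difference of the means of replicates 2 and 3.

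Genes of DNA replication showed the same direction with smaller differences. Of 34 tested, 11 were lower and 0 higher, 32.4% against 3.97% of all tested genes called lower, with a median of -0.463. Mcm5 and Mcm6, subunits of the replicative helicase, fell by 1.21 and 0.85, the ribonucleotide reductase subunit Rrm2 by 1.19, the ligase Lig1 by 0.86, the licensing factors Cdt1, Cdc6 and Gmnn by 0.82, 0.44 and 0.69, and Uhrf1, which copies DNA methylation, by 1.01. The sliding clamp Pcna had levels of 1.62, 1.59 and 1.48 in SAMP8-AL cultures and 2.13, 2.18 and 2.46 in SAMR1-AL cultures, and its difference of -0.69 missed the threshold (limma adjusted p = 0.0525). With the array set as a block 3 of the 34 genes were lower, and without replicate 1 also 3. Of the 28 genes detected in all 6 AL arrays, 8 were lower and 0 higher, with a median of -0.493. That is 28.6% lower, against 3.35% of all tested genes so detected.

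Many promoters of genes active in late cell cycle carry a cell cycle genes homology region (CHR), written TTTGAA, together with CCAAT boxes, which the repressor complex DREAM and the factor NF-Y bind in human and mouse cells. Both letter strings were searched on both strands of the mouse RefSeq promoters, from 250 bases before to 50 bases after the start. The strings can share no more than an end base. Of the 25 tested mitotic genes 20 had a promoter in the table, and 15 of these (75%) held both strings, against 292 of 6360 tested genes with a promoter (4.59%) and 7.12% of all 27025 promoters. TTTGAA was in 17 of the 20 (85%), against 11.2% of tested genes, and CCAAT in 15 (75%), against 38.5%. Of the 13 mitotic genes that were lower and had a promoter, 11 held TTTGAA and 9 both. The 250 bases before the start of 3 mitotic genes that fell are shown, Ube2c as the member of smallest p that holds both strings, and Cdc20, the activator of the anaphase promoting complex, and Cdk1 chosen after their values were seen. The capitals mark TTTGAA and CCAAT or their reverse complements. The sequences are those of the reference assembly GRCm38.p6 from RefSeq, not of the SAM strains.
Ube2c, chr2:164769679-164769928, plus strand: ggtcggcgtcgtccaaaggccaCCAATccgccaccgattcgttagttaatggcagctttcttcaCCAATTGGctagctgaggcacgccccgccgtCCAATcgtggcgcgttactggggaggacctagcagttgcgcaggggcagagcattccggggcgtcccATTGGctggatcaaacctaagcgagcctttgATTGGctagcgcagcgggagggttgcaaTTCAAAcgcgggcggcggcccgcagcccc
Cdc20, chr4:118437344-118437593, minus strand: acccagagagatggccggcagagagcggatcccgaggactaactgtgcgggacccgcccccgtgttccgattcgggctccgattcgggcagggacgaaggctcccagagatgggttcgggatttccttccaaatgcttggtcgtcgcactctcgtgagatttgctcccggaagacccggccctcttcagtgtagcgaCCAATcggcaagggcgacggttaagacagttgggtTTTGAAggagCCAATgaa
Cdk1, chr10:69352913-69353162, minus strand: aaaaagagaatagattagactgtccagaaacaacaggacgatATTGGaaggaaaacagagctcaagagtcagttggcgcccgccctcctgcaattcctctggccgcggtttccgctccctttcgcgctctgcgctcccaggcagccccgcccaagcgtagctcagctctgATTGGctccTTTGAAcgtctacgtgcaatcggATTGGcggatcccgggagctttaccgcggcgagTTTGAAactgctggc

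Ube2c has 6 CCAAT strings and 1 TTTGAA, Cdc20 has 2 and 1, and Cdk1 has 3 and 2. Cdc20 had levels of -0.78, -0.61 and -0.46 in SAMP8-AL cultures and -0.09, 0.38 and 0.41 in SAMR1-AL cultures, a fall of 0.85 (SE 0.216, limma adjusted p = 0.0242). Cdk1 had -0.45, -0.14 and -0.12 in SAMP8-AL cultures, against 0.29, 0.94 and 0.79 in SAMR1-AL cultures (limma adjusted p = 0.0294). In both genes the highest SAMP8-AL sample lay below the lowest SAMR1-AL sample, but neither call held without replicate 1 (limma adjusted p = 0.0515 for Cdc20 and 0.0554 for Cdk1) or when blocking on the array set (0.0737 and 0.0549). A match of letters is a description and shows no binding in these cells.

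Inhibitors of the cell cycle and senescence genes did not move together. Of 20 tested, 3 were higher and 1 lower, 20% against 9.42% of all tested genes, and the list median was 0.198. Cdkn2a encodes p16 and, from another reading frame, Arf, which hold cells in G1 and stabilise p53. Its levels were -0.28, -0.20 and -0.34 in SAMP8-AL cultures and 1.95, 1.19 and 1.91 in SAMR1-AL cultures, and it fell by 1.96 (SE 0.188, limma adjusted p = 2.70e-05). Cdkn2b, which encodes the related inhibitor p15 beside it on the chromosome, stood at 3.47, 3.83 and 3.77 in SAMP8-AL cultures and at 2.91, 2.31 and 2.62 in SAMR1-AL cultures. It rose by 1.08 (SE 0.196, limma adjusted p = 0.00450). These neighbours therefore moved in opposite directions, with no overlap of the groups in either. Glb1, the gene of the lysosomal galactosidase stained in senescent cells, rose by 0.83 (limma adjusted p = 0.00708, and 0.0507 without replicate 1) and the p53 target Ccng1 by 0.81 (limma adjusted p = 0.275 when blocking on the array set and 0.0838 without replicate 1). The list median was -0.0541 with the block. Cdkn1a, the p21 gene, had 2 tested probes, of which the dimmer rose by 1.34 (limma adjusted p = 0.00979) and the brighter differed by 0.33 (limma adjusted p = 0.282).

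Cytosolic ribosomal proteins were lower as a group. Of 42 tested, 0 were above 0, 10 were called lower (23.8% against 3.97% of all tested genes) and the median was -0.66. Rps15 had levels of 3.33, 3.21 and 3.35 in SAMP8-AL cultures and 3.88, 4.27 and 3.91 in SAMR1-AL cultures (-0.72, SE 0.148, limma adjusted p = 0.00856). Rpl32 fell by 1.21, Rpl38 by 1.00 and Rpl36a by 1.00. The median was -0.351 in replicate 1 and -0.797 in replicates 2 and 3, and 3 genes were lower with the array set as a block, against 7 without replicate 1. The normalization divides by the SD of the array, which moves bright genes such as these. That SD was smaller in SAMP8-AL than in SAMR1-AL cultures in replicate 1 and larger in replicates 2 and 3. Its part in the difference and in its split by replicate was not tested. In CR serum the median of the list was -0.12, with 0 called.

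Genes of the mitochondrion had few calls, with list medians slightly below 0. The median was -0.28 for 67 mitochondrial ribosomal proteins (1 higher, 2 lower), -0.226 for 34 subunits of respiratory complex I (0 called), -0.192 for 24 subunits of complexes II to IV (1 lower, Cyc1, by 0.45, a call lost when blocking on the array set and when leaving out replicate 1) and -0.33 for 13 subunits of ATP synthase (0 called). Few members of these lists lay above 0, against 4114 of all 7779 tested genes. The counts were 6 of 67 for mitochondrial ribosomal proteins, 3 of 34 for complex I, 0 of 24 for complexes II to IV and 2 of 13 for ATP synthase. The only gene of these lists called higher was Mrpl35, a protein of the large mitochondrial ribosomal subunit, which passed the filter through the SAMP8-AL arrays alone. It had levels of -0.05, 0.01 and -0.03 in SAMP8-AL cultures and was detected in no SAMR1-AL array, at least 1.36-fold higher in SAMP8-AL cultures (limma adjusted p = 2.90e-05).

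**Figure D3:**
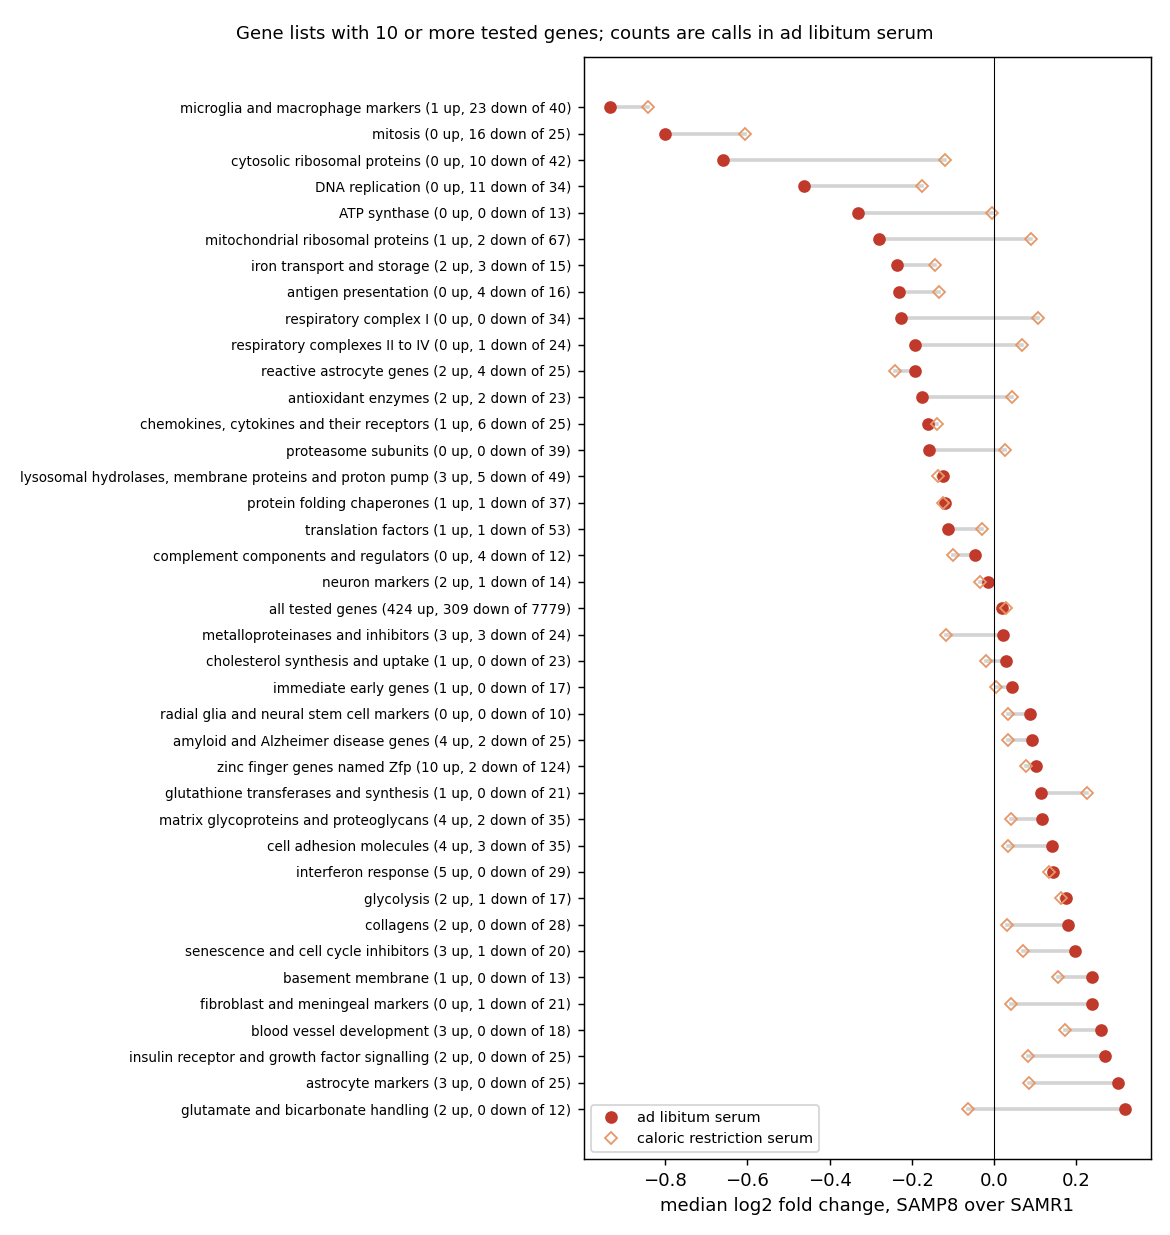
Median log2 fold change of SAMP8 over SAMR1 cultures for gene lists with 10 or more tested genes and for all tested genes, in ad libitum serum (filled circles) and in caloric restriction serum (open diamonds). The counts are the calls in ad libitum serum. Medians were lowest for microglial markers (-0.935), mitosis (-0.799) and cytosolic ribosomal proteins (-0.66), against 0.0201 for all tested genes.

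Among genes of oxidative defence, 2 of 23 were higher and 2 lower, 17.4% against 9.42% of all tested genes. Nfe2l2, the transcription factor that turns on antioxidant genes, had levels of 1.80, 1.72 and 1.57 in SAMP8-AL cultures and 0.68, 0.12 and 0.46 in SAMR1-AL cultures, and rose by 1.28 (SE 0.262, limma adjusted p = 0.00856). Keap1, which holds Nfe2l2 in check, rose by 0.58, a call lost without replicate 1 (limma adjusted p = 0.108) and when blocking on the array set (0.0926). Extracellular superoxide dismutase, Sod3, fell by 0.97 and glutaredoxin, Glrx, by 0.63, of which Glrx lost its call in both of these fits (limma adjusted p = 0.0667 and 0.0963). Of the 21 genes of glutathione transfer and synthesis, only the transferase Gstm2 was called (1.39).

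Iron genes were also mixed, with 2 higher and 3 lower of 15, 33.3% against 9.42% of all tested genes. The transferrin receptor Tfrc, which brings iron into cells, had levels of 1.93, 2.06 and 1.92 in SAMP8-AL cultures and 0.43, 0.96 and 0.84 in SAMR1-AL cultures, and rose by 1.23 (SE 0.154, limma adjusted p = 2.84e-04). Cp, which loads iron onto transferrin after export, rose too. The endosomal metal transporter of macrophages, Slc11a1, fell by 1.15, and the mitochondrial iron importers Slc25a28 and Slc25a37 by 0.67 and 0.36. None of these 3 falls held with the array set as a block (limma adjusted p from 0.0842 to 0.107), and without replicate 1 that of Slc11a1 alone did.

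Interferon response genes held 5 higher and 0 lower of 29, 17.2% against 9.42%, with a median of 0.144. They were Trim30a (1.11), Trim12a (at least 1.21-fold higher, detected in no SAMR1-AL array), Irgm1 (0.67), the RNA sensor Ddx58 (0.53) and Eif2ak2 (1.05), the kinase that stops translation on double-stranded RNA. Ddx58 lost its call with the array set as a block (limma adjusted p = 0.0967) and without replicate 1 (0.107). Of the 23 interferon genes detected in all 6 AL arrays, 3 were higher and 0 lower, 13% higher against 4.74% of all genes so detected. Antigen presentation genes held 4 lower and 0 higher of 16, 25% against 9.42% of all tested genes. H2-K1, a class I heavy chain, fell by 1.03, the class II loading chaperone chains H2-DMa and H2-DMb1 by 0.92 and 0.91, and the class I gene H2-M3 by 0.41. H2-DMa, H2-DMb1 and H2-M3 passed the filter through the SAMR1-AL arrays alone, where they are high. Of the 11 members detected in all 6 AL arrays, 1 was lower and 0 higher, with a median of -0.123. That is 9.09% lower, against 3.35% of all genes so detected. With the array set as a block 1 of the 4, H2-DMb1, was still called, against limma adjusted p-values of 0.0741 for H2-K1, 0.109 for H2-DMa and 0.203 for H2-M3, and without replicate 1 H2-M3 was not (0.127). Class I genes are variable between mouse strains and resemble each other, so the reading of their probes is uncertain.

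Genes tied to Alzheimer disease held 4 higher and 2 lower of 25, 24% against 9.42% of all tested genes. App, the precursor of amyloid beta, had levels of 4.36, 4.27 and 4.18 in SAMP8-AL cultures and 3.26, 3.53 and 3.66 in SAMR1-AL cultures, and rose by 0.79 (SE 0.178, limma adjusted p = 0.0141). Bace1, the protease that starts its cleavage to amyloid beta, rose by 0.70, the sorting receptor Sorl1 by 0.99 and Ide, an enzyme that degrades amyloid beta, by 0.63. The myeloid genes Trem2 and Ms4a6d (-1.78) fell. None of the 4 rises held with the array set as a block (limma adjusted p = 0.0714 for App, 0.102 for Bace1, 0.0671 for Sorl1 and 0.0693 for Ide). Without replicate 1 that of Ide held (0.0342) and those of App (0.103), Bace1 (0.102) and Sorl1 (0.0841) did not, while both falls held in each fit.

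Genes of adhesion and matrix were divided. The called shares were 20% of adhesion molecules and 25% of metalloproteinases and inhibitors, against 9.42% of all tested genes. Of 35 adhesion molecules 4 were higher and 3 lower, with N-cadherin, Cdh2, at 1.15, integrin Itgav at 0.95, and the leukocyte integrin chain Itgb2 at -0.81. Of 24 metalloproteinases and their inhibitors, 3 were higher, Reck, Timp4 (1.26) and Adam23 (0.77), and 3 lower, Mmp12, Adam8 (-0.95) and Adam15 (-0.53). With the array set as a block Itgav, Itgb2, Adam23 and Adam15 were not called, and the median of the metalloproteinase list was -0.199, against 0.0231 without it. Of 28 collagens Col8a1 (0.94) and Col4a5 (0.68) were higher. The block ended both of these calls (limma adjusted p = 0.169 and 0.0793), gave 0 higher and 3 lower collagens and turned the list median to -0.11, against 0.18 without it. Among 18 genes of vessel development Vegfa rose by 0.53, Fgf1 by 1.07 and Efnb2 by 0.53. Fgf1 alone kept its call with the block (limma adjusted p = 0.00562), and none of the 3 did without replicate 1 (0.149 to 0.218). Pfkl, the liver form of phosphofructokinase, rose by 1.06 and hexokinase Hk1 by 0.83, while Hk2 fell by 0.52, the 3 calls among 17 genes of glycolysis. Hk1 and Hk2 lost theirs with the block (limma adjusted p = 0.180 and 0.0865) and without replicate 1 (0.0589 and 0.145).

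Of 49 lysosomal genes 3 were higher, Glb1, the sialidase Neu1 (0.71) and the proton pump subunit Atp6v1a (0.73), and 5 lower, among them the cathepsins Ctsh (-0.94), Ctsc (-0.85) and Ctsz (-0.70), proteases that myeloid cells also make in quantity. The called share was 16.3%, against 9.42% of all tested genes. With the array set as a block 1 was higher and 3 were lower, and without replicate 1 no lysosomal gene was called. Insulin and growth factor signalling held 2 higher of 25, Ddit4l and the receptor Igf1r (0.51), with 22 of the 25 above 0 and a median of 0.27. With the block Igf1r was not called (limma adjusted p = 0.139) and the median was 0.0969, and without replicate 1 it was not called either (0.0792). The 124 tested zinc finger genes named Zfp held 10 higher and 2 lower, 9.68% against 9.42% of all tested genes, with a median of 0.103, and the block left 4 higher and 1 lower. Proteasome subunits had 0 calls of 39, and protein folding chaperones 1 higher and 1 lower of 37.

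Detection itself divided the groups for a small set of probes. Of all 24613 probes, 190 probes of 165 named genes were detected in all 3 SAMP8-AL arrays and in no SAMR1-AL array, and 55 probes of 46 genes in all 3 SAMR1-AL arrays and in no SAMP8-AL array. Of these 87 and 42 were also called by limma. Most lay just above background, and only 4 of the 190 and 4 of the 55 were at least 2-fold above it. At a detection p under 0.01 in the 3 arrays the counts were 21 and 14. Over all probes, 43.31%, 46.73% and 44.97% were detected in SAMP8-AL replicates 1, 2 and 3. In the SAMR1-AL replicates these shares were 43.57%, 41.25% and 42.15%. SAMP8-AL replicates 2 and 3 form the other array set, so the larger count in SAMP8-AL cannot be told apart from these differences. In the CR arrays 34 of the 190 probes showed the same split, of 122 probes with it there, and 9 of the 55, of 28. Sugct, a mitochondrial coenzyme A transferase, is an example with a tight spread, at a mean level of 0.43 ± 0.035 in SAMP8-AL cultures (SD, n = 3) and detected in no SAMR1-AL array, at least 1.87-fold higher. Cdh6, a cadherin, was detected in SAMR1-AL arrays alone and was at least 1.25-fold higher there.

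Called genes were also placed along the chromosomes. Of the 7775 tested genes with a position, 733 were called (9.43%). Of the called genes 207 (28.2%) had a called gene as the next tested gene on either side, against 1158 (16.4%) of the genes not called, and 14 of the 30 genes with the largest changes had one. This difference was not tested. The share of called genes per chromosome went from 6.29% on chromosome 8 to 15% on chromosome 13, and chromosome 6 held 13.5%, with 21 genes past 2-fold, the most of any chromosome. Some of these runs are families that share a cell type, such as C1qa, C1qb and C1qc on chromosome 4, Ccl3, Ccl4 and Ccl9 on chromosome 11 and the Fc receptors on chromosome 1. Others hold genes of no shared kind. The longest run was of 5 tested genes on chromosome 4, Hacd4 (0.81), Klhl9 (0.98), Mtap (-0.89), Cdkn2a (-1.96) and Cdkn2b (1.08). On chromosome 7 Gdpd5 was followed by Rps3 (-0.63) and Slco2b1 (-0.94), and on chromosome 13 Gpr137b-ps came after Lgals8 (0.52) and Ero1b (0.58). Klhl9, Rps3 and Lgals8 lost their calls with the array set as a block.

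Of 25 tested genes centred on Reck on chromosome 4, 6 were called, against 9.42% of all tested genes. This count includes Reck itself, which was chosen for its large rise. Blocking on the array set left 5, again with Reck, and ended the call of Igfbpl1 (limma adjusted p = 0.118). Tesk1, a kinase that acts on cofilin, had levels of 2.64, 2.74 and 2.84 in SAMP8-AL cultures and 0.89, 1.20 and 1.32 in SAMR1-AL cultures, a rise of 1.60. The next tested gene, the B cell and macrophage receptor Cd72, fell by 1.62. Npr2, a receptor of natriuretic peptide, rose by 0.78, while Hint2, a mitochondrial hydrolase next to Reck, fell by 0.92 and Igfbpl1 by 0.59. Signs thus alternated within the stretch. A shared cause of such neighbours, including sequence differences between the strains under the probes, was not tested.

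**Figure D4:**
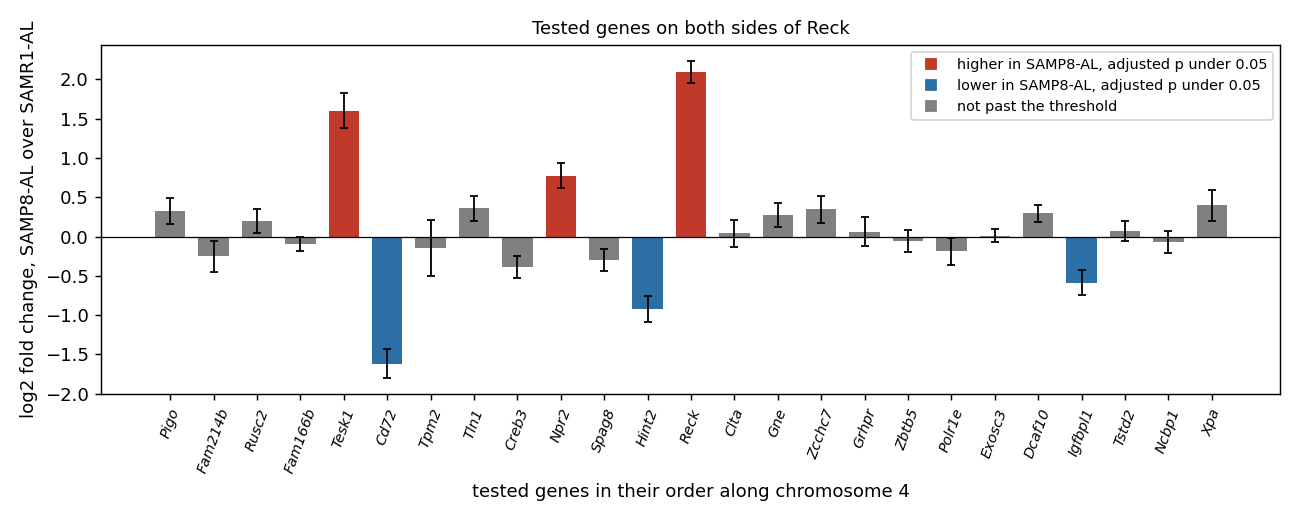
Log2 fold change of SAMP8-AL over SAMR1-AL cultures (bars, with SE) for 25 tested genes in their order along chromosome 4, with Reck at the centre. Red bars are genes called higher, blue bars genes called lower and grey bars genes not past an adjusted p of 0.05. Reck (2.10) and Tesk1 (1.60) rose, and Cd72 fell by 1.62.

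Probes of the same gene did not always agree. Of 1302 genes with 2 or more tested probes, 268 had at least 1 called probe. All probes had the same sign in 236 of these, and all were called the same way in 51. The largest difference between probes was in Vamp8, a vesicle fusion protein, with 0.04 for 1 probe and -1.35 for the other. Eif4g2, a translation factor, had 1.39 and 0.07, Rbbp7, a histone chaperone, had 0.74 and -0.58 as its highest and lowest probe, and Txnl4a, a splicing protein, had 0.95 and -0.35. Vps52 (0.74 and -0.46) and Tmem132a (0.44 and -0.69) had probes called in opposite directions, so no direction can be given for these genes.

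In part of the transcriptome the strain difference in replicate 1 was unlike that in replicates 2 and 3, samples that share only a number across strains. Without SAMP8-AL replicate 1 and SAMR1-AL replicate 1, 224 genes were higher (2.88%) and 144 lower (1.85%). In probes this was 334 and 195, and leaving out SAMP8-AL replicate 2 alone gave 276 and 233. A loss of calls is thus not particular to replicate 1. Of the genes called in either fit, 316 were called in both, 417 with all 3 replicates alone and 52 without replicate 1 alone. In the replicate 1 pair SAMP8-AL lay above SAMR1-AL for 195 of the 224 genes (87.1%, against 41.8% of all tested genes). It lay below for 140 of the 144 (97.2%, against 58.2%). The fit did not use this pair, but the filter did, as a probe had to be detected in every array of a group. For genes detected in 1 group alone the direction in replicate 1 is thus partly set by the filter, and the shares are descriptions. The median difference of the 224 genes was 0.54 in replicate 1 and 0.908 between the means of replicates 2 and 3, and that of the 144 genes was -0.871 and -0.985. Across all tested genes the medians were -0.0667 and 0.0721.

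**Figure D5:**
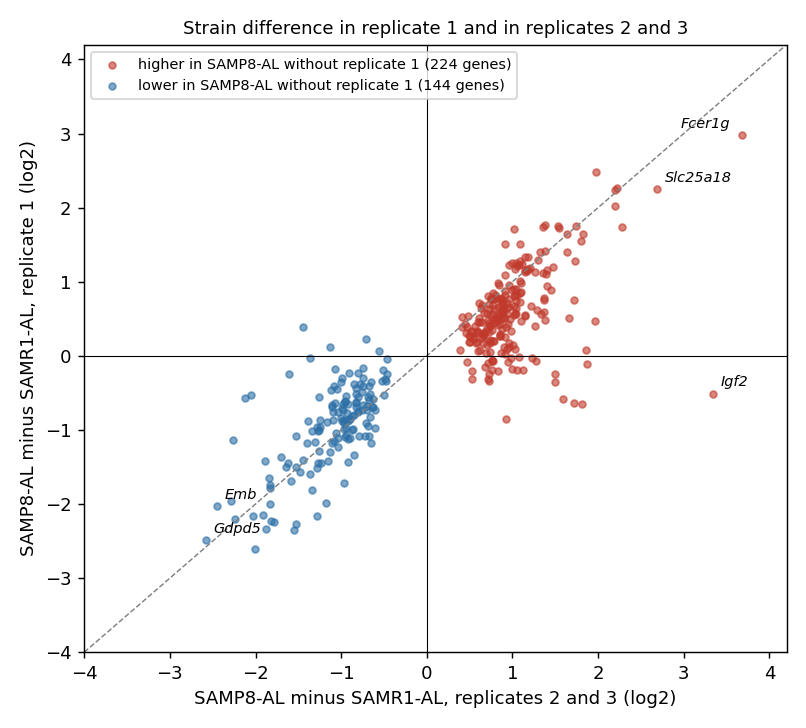
Difference of SAMP8-AL minus SAMR1-AL (log2) in replicate 1 (vertical axis) against that between the means of replicates 2 and 3 (horizontal axis) for genes called without replicate 1, 224 higher (red) and 144 lower (blue), with the line of equality dashed. Of the 224 genes 195 lay above 0 in replicate 1 and of the 144 genes 140 lay below 0, whereas Igf2 was far from the line.

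The difference in replicate 1 lay more than 1 log2 unit from that of replicates 2 and 3 in 279 genes. No like count was made for another replicate number, so this count has no baseline. The widest gaps belonged to genes of fibroblasts and meninges. Apod, a lipid carrier, had a level of 0.15 in SAMP8-AL replicate 1 but 4.13 and 3.00 in replicates 2 and 3, against 2.01, 1.16 and 1.16 in SAMR1-AL replicates 1, 2 and 3. Dcn, decorin, a proteoglycan that binds collagen, had 0.21, 3.14 and 3.11 in SAMP8-AL cultures, against 1.97, 0.88 and 1.19 in SAMR1-AL cultures. Igf2, a growth factor made by meninges and choroid plexus, had 1.04, 3.60 and 3.41 in SAMP8-AL cultures, against 1.54, 0.04 and 0.29 in SAMR1-AL cultures. In all 3 genes SAMP8-AL replicate 1 lay below SAMR1-AL replicate 1, while replicates 2 and 3 of SAMP8-AL lay above all SAMR1-AL samples. Igf2 was called without replicate 1 (limma adjusted p = 0.0384) and not with it (0.120). Fbln2, Mmp2, Ctsk and the transcription factor Foxd1 had the same pattern.

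The SAMP8-CR cultures repeated it, with Apod at 0.61, 4.33 and 3.55 in replicates 1, 2 and 3. Over the 21 fibroblast and meningeal markers the mean level was 2.00, 2.95 and 2.95 in SAMP8-AL replicates 1, 2 and 3, against 2.42, 2.30 and 2.35 in SAMR1-AL replicates, and the median difference was -0.495 in replicate 1 and 0.338 in replicates 2 and 3. The split of SAMP8 samples is also that of the array sets, so that it cannot be told apart from them. The 9 ependymal and choroid plexus markers set SAMR1-AL replicate 1 apart, with mean levels of 0.199, 0.518 and 0.581 in SAMP8-AL cultures and 1.48, 0.395 and 0.275 in SAMR1-AL cultures. Ttr carried much of this, at -0.47, 0.47 and 0.63 in SAMP8-AL cultures and 3.08, 1.22 and 1.34 in SAMR1-AL cultures. Its limma adjusted p was 0.0312 with all replicates and 0.214 without replicate 1.

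Collagens had a median of -0.157 in replicate 1 and 0.332 in replicates 2 and 3. The lists of microglial markers (-0.822 and -1.15), mitosis (-0.685 and -0.891), DNA replication (-0.443 and -0.437) and astrocyte markers (0.318 and 0.295) had the same sign in both. The gap ran the other way for very bright genes. Ckb, brain creatine kinase, had 8.57, 7.24 and 7.74 in SAMP8-AL cultures, against 6.65, 8.34 and 8.60 in SAMR1-AL cultures, and Cst3, Vim, Prnp, Mt1 and Fth1 had a like order. Their levels moved with the spread of the array. The SD of the log2 intensities, by which the normalization divides, was 1.277, 1.518 and 1.42 in SAMP8-AL replicates 1, 2 and 3 and 1.547, 1.288 and 1.233 in the SAMR1-AL replicates, and the samples with the smaller SD had the higher normalized levels of these genes. Its part in the differences of these genes was not tested.

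In CR serum 115 genes were higher and 102 lower in SAMP8-CR than in SAMR1-CR cultures, 1.48% and 1.31% of the same 7779 genes. The CR samples are not shown to be independent of the AL samples. Deviations from the group means were correlated between AL and CR samples over the tested probes. For the same number r was 0.375, 0.433 and 0.106 in SAMP8 and 0.574, 0.0912 and 0.131 in SAMR1. For different numbers it went from -0.449 to 0.197 in SAMP8 and from -0.553 to 0.44 in SAMR1. A pairing by number is thus not shown for all samples. The array sets take in both sera, so that the same sign in AL and CR serum is given as a description. Of the 424 genes higher in SAMP8-AL cultures, 410 (96.7%) were above 0 in CR serum, against 55.4% of all tested genes, and 92 (21.7%) were called there. Of the 309 lower genes 299 (96.8%, against 44.6%) were below 0 and 93 (30.1%) were called. The size of the difference was smaller in CR serum for 363 of the 424 and 257 of the 309, with medians of 0.685 in AL and 0.39 in CR serum, and -0.765 in AL and -0.543 in CR serum. The genes were chosen for passing in AL serum, which favours larger values there, so no reading of the serum is made from these sizes.

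The test of the difference between the strain effects in AL and CR serum called 0 of 7779 genes in limma, with 281 at an unadjusted p under 0.05 and a smallest adjusted p of 0.957. The model treats AL and CR samples as independent. With strain and replicate number as a random block, an alternative chosen after seeing the data, the test again called 0 genes, with 489 at an unadjusted p under 0.05 and a smallest adjusted p of 0.646, while the strain difference held 434 genes higher and 314 lower in AL serum. The 3 genes ranked first by this test were Ski, a repressor of TGF beta signalling, with 0.65 in AL and -0.03 in CR serum, Olig2 with 0.89 and 0.25, and Cox17, a copper chaperone of cytochrome oxidase, with -0.46 and 0.29, each at an adjusted p of 0.957. Median differences by list were -0.935 in AL and -0.842 in CR serum for microglial markers, -0.799 and -0.605 for mitosis, and -0.463 and -0.175 for DNA replication. SAMR1-CR replicate 3 had a mean mitotic level of -0.286, as low as that of the SAMP8 samples, against 0.380 and 0.705 in SAMR1-CR replicates 1 and 2. The difference of the cytosolic ribosomal proteins, -0.66 in AL and -0.12 in CR serum, was not shown to depend on the serum, as no member passed the test.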

How the data were processed

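The authors deposited the raw intensity of each probe and array on a linear scale, exported from the scanner software with no background correction stated, along with detection p-values, computed against negative control beads. The authors also deposited Z scores, the log10 intensity minus the mean of its array over all probes, divided by the SD. These were rebuilt from the intensities to within rounding.

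Here each array's log2 intensities were centred on their mean and divided by their SD, then scaled back by the average SD over the 12 arrays (1.418). All 4 groups were fitted in limma 3.58.1 (R 4.3.3; lmFit, eBayes with trend, 8 residual degrees of freedom) and p-values adjusted by Benjamini-Hochberg over all 10478 kept probes at 0.05. Of these probes, 1118 have no gene name. Gene names come from the platform annotation, and sequences from RefSeq (GRCm38.p6). A gene was represented by its kept probe of highest mean level. Where a group detected a probe in no array, the dim side was set at the lowest detected intensity of each array, or at the probe's own value where higher, and the fold is given as at least that size. Such a bound concerns the signal of the probe. Figures were drawn with matplotlib 3.10.9 in Python 3.11.15. The procedure was tested on simulated data.

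The members, the 44 gene lists and the tests were chosen with earlier results of these data known. Named genes are the 15 largest rises and 15 largest falls among called genes without overlap of the groups, the 4 members of each list with the smallest p, the 3 genes with the smallest interaction p and the 6 genes whose probes differed most. Other list members, the replicate 1 genes, the neighbours and the genes of detection were named after their values were seen. P-values measure the spread between the samples. The precision is limited by how few arrays there are. Alternatives changed the normalization, filter, fit, threshold and samples.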

Additional observations from a re-analysis of the deposited data

How the results depend on the processing

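None of the 1074 probes called in P8AL-R1AL had the opposite sign in any of 27 refits, of which 1, with a detection p under 0.01, tested 933 of them. Against 688 probes higher and 386 lower, median centring without scaling gave 271 and 135, leaving out replicate 1 of both AL groups 334 and 195, array weights 1180 and 656, the first array set alone 52 and 48, and an absolute Z ratio of at least 1.5, with no test, 1376 and 933. Blocking on the array set gave 349 and 293. The share of calls that were higher was 64.1%, against 54.4% when blocking on the array set and 52% in the first set. Leaving out 1 sample gave 276 to 879 higher and 161 to 505 lower. The counts of higher and lower probes were 367 and 161 without SAMP8-AL replicate 1, 276 and 233 without SAMP8-AL replicate 2, 292 and 164 without SAMP8-AL replicate 3, and 286 and 187 without SAMR1-AL replicate 2. The deviations of AL samples with the same replicate number correlated between strains by 0.014, 0.0198 and -0.105, so the samples share only a number across strains. Between AL and CR samples of a strain they correlated by number in part only. SAMR1-AL replicate 3 correlated more with SAMR1-CR replicate 2 (0.44) than with SAMR1-CR replicate 3 (0.131). With strain and number as a random block, chosen after seeing the data, 714 probes were higher and 390 lower. With the replicate block 873 probes were higher and 547 lower, and 1069 of these were called without it.

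P8CR-R1CR held 295 called probes, 464 with the replicate block, 72 in the first array set and 163 to 353 when 1 sample was left out. The counts were 163 without SAMP8-CR replicate 1, 188 without SAMP8-CR replicate 2 and 176 without SAMR1-CR replicate 2. The interaction had 0 calls in each setting in which it was fitted, with 131 to 994 probes at an unadjusted p under 0.05. Probes detected in SAMP8-AL arrays alone numbered 190, against 21 at a detection p under 0.01 and 605 without both samples numbered 1. Probes detected in SAMR1-AL arrays alone numbered 55, against 14, 108 and, with both changes, 24. Of 102 named called genes, 94 kept the call under quantile normalization, 47 under median centring, 64 without replicate 1, 72 when blocking on the array set, 21 in the first set and all 102 with the replicate block. The causes of these differences were not tested, except that fewer samples take part where samples are left out. Signal over background limits dim genes, as the 90th percentile of intensity was 4.68 to 7.97 times the lowest detected intensity on the AL arrays.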
